A study of Mus musculus with 8 samples.

Results

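The genes Epgn, Ereg, Areg and Btc lie side by side on mouse chromosome 5 and encode EGF-like growth factors. Their surroundings were examined in 4 lists of open chromatin, and every called region with a summit in or within 100 kb of one of the 4 gene bodies was taken. There were 25 such regions, of 60835 distinct regions in the 4 lists combined. A region is a set of overlapping peak lines of a list, and regions of different lists that overlapped by at least 1 bp were counted as the same region. The rule used position alone and no measured value, but the 4 genes were chosen with earlier results of these data known. The region nearest to its limit on the inside was called in all 4 lists and lay 96757 bp from Epgn, with folds of 4.02 and 4.55 with E47 and 3.66 and 4.80 with GFP at 4 h and 16 h. The nearest one outside, 118660 bp from Epgn, was also in all lists, with folds of 12.9 and 10.1 with E47 and 11.8 and 14.5 with GFP.

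Open chromatin was mapped by ATAC-seq, in which the Tn5 transposase inserts into accessible DNA, in thymic ILC2s, the group 2 innate lymphoid cells, of plck-Id1 mice (strain C57BL/6). Both arms of the comparison came from these mice, so the Id1 transgene, which encodes an inhibitor of E proteins, was present in the controls too. E47 cells expressed E47-ER, in which the E protein E47 is joined to a receptor domain that responds to tamoxifen, together with GFP from a retrovirus, and GFP cells received the GFP retrovirus alone. After sorting for GFP and expansion with IL-7, IL-25 and IL-33, cells were treated with 4-hydroxytamoxifen for 4 or 16 h, which gave E47 4 h, GFP 4 h, E47 16 h and GFP 16 h with 2 samples each. Whether the 2 samples came from separate animals or cultures is not stated in the labels. Each group was represented by 1 list that the authors had drawn from both of its samples, so that no spread between replicates could be given and no difference below was tested.

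In the sample descriptions the vector goes by replicate, which contradicts the titles and transduction labels used here; read literally, each list would pool both vectors. The lists held 49811 regions for E47 4 h, 42665 for GFP 4 h, 40649 for E47 16 h and 52846 for GFP 16 h. Read depth was unknown. Tcf3, the gene that encodes E47, had 2 regions, both in all lists. Of 10 ILC2 marker genes, 8 in E47 4 h, 7 in GFP 4 h, 7 in E47 16 h and 8 in GFP 16 h had a region within 1 kb of a gene end, and Rora had none there. None of 3 B cell and none of 3 mast cell and basophil markers had one. Of 4 T cell markers, 2, 1, 2 and 2 did in the same order, Cd4 among them in every list, as did Cd14 of 3 myeloid markers and Epcam and Col1a1 of 4 epithelial and stromal markers. The share of all genes with a region within 1 kb of an end was not computed, so these counts have no background. A window just before the gene start was overlapped for 51.3% of protein-coding entries in E47 4 h and 50.1% in GFP 4 h. At 16 h it was overlapped for 49.9% in E47 and 51.2% in GFP. Against these shares, 2 of 4 markers does not stand out. The part of the markers of other cell types in the results was not tested.

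EGF-like ligands are made as membrane-anchored precursors that metalloproteases release, and they signal through the EGF receptor and related ErbB receptors. Areg encodes amphiregulin, which ILC2s are known to make and which promotes the repair of epithelial barriers. Ereg encodes epiregulin, Epgn epigen and Btc betacellulin, best known from epithelial tissues. E proteins bind DNA at E-boxes, short sites with the letters CANNTG.

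From low to high coordinate the genes are Epgn (chr5:91027517-91035212 in mm10), Ereg (chr5:91074617-91093649), Areg (chr5:91139599-91148432) and Btc (chr5:91357261-91402994). Epgn and Areg are on the plus strand and Btc on the minus strand; no strand was taken for Ereg. Gaps of 39404 bp, 45949 bp and 208828 bp separate them. The 250 bases before the start of 3 of the genes were available from RefSeq (GRCm38.p6, the assembly of mm10). They are shown because Areg and Btc were called open there in all 4 lists and Epgn in none; capitals mark E-box matches.
Epgn, chr5:91027267-91027516, plus strand: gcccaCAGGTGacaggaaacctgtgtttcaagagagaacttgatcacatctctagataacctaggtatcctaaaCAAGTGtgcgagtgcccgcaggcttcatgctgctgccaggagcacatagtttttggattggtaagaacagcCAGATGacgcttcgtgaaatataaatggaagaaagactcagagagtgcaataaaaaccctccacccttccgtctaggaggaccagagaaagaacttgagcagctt
Areg, chr5:91139349-91139598, plus strand: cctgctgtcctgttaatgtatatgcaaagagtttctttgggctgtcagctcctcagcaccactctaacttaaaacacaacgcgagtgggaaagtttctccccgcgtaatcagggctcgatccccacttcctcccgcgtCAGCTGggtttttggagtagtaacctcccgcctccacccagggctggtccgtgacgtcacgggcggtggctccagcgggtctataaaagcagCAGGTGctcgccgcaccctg
Btc, chr5:91402995-91403244, minus strand: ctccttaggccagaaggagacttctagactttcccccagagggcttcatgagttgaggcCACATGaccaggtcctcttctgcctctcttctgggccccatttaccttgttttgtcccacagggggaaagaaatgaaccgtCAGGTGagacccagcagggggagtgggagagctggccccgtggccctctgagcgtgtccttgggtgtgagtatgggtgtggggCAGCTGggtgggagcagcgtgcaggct
The Areg stretch holds CAGCTG with its first base 112 bp before the start and CAGGTG at 20 bp. The Btc stretch holds CACATG at 191 bp, CAGGTG at 110 bp and CAGCTG at 27 bp, and the Epgn stretch CAGGTG at 245 bp, CAAGTG at 176 bp and CAGATG at 105 bp. Motifs were searched on both strands. CANNTG was found in 62.8% of 21263 windows of the same length at protein-coding genes, 28.5% had at least the 2 matches of Areg, and 10.1% at least the 3 of Btc and Epgn. The narrower forms CAGCTG and CAGGTG, which are part of CANNTG, were in 12.1% and 16.9%. Areg also holds TGACGTCA, the cAMP response element, 61 bp before the start (1.92% of windows) and TATAAA at 31 bp (11.6%); TATAAA lies in the Epgn stretch too, at 86 bp. A site of GATA factors, spelled AGATAA and found in 8.81% of windows, was matched in Epgn alone of the 3. None of the 3 held the AP-1 site TGANTCA, found in 6.13% of windows. A match describes these letters and does not show binding.

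Areg was open at its start with both vectors. The region over the start (chr5:91139039-91140052) had its strongest summit 85 bp before the start, between the CAGCTG and TGACGTCA matches printed above. Fold enrichment, the authors' ratio of a peak over its local background, was 15.2 in E47 4 h and 12.5 in GFP 4 h, and 14.9 in E47 16 h and 12.3 in GFP 16 h. By fold, E47 was thus higher at both times, by log2 0.28 at 4 h and 0.28 at 16 h. Another summit, inside the gene, had folds of 11.5 in E47 4 h and 8.45 in GFP 4 h, and of 10.4 in E47 16 h and 8.27 in GFP 16 h, the same order. A weak summit at the outer edge had 4.60 in E47 and 2.82 in GFP at 4 h but 3.34 in E47 and 4.81 in GFP at 16 h. By −log10 p, which grows with depth, the whole region stood at percentile 86.8 in E47 and 82.0 in GFP at 4 h. At 16 h these percentiles were 83.8 in E47 and 85.8 in GFP, so E47 was not higher by that measure.

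These ratios were read against all regions that both vectors shared. Over 35382 such regions at 4 h the median log2 ratio of E47 over GFP was 0.09, with quartiles of -0.06 and 0.25, and over 33682 at 16 h it was -0.09, with quartiles of -0.30 and 0.07. The Areg start lay above 78.1% of shared regions at 4 h and above 92.9% at 16 h. These shared regions were not promoters alone, and the ratio was not ranked among promoters. Promoter windows overlapped by a region had median folds of 16.4 in E47 and 15.7 in GFP at 4 h. At 16 h the medians were 16.0 in E47 and 15.9 in GFP, so E47 was not lower there. At the start of the neighbouring gene Mthfd2l, the stronger region lay above 29.3% at 4 h and 87.1% at 16 h. The weaker one lay above 57.6% and 52.1%. Among the promoter windows overlapped by a region, Areg had a fold above 41.2% in E47 4 h, 28.3% in GFP 4 h, 42.2% in E47 16 h and 27.6% in GFP 16 h, so its promoter was not among the most enriched.

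The start of Btc was also called in all lists (chr5:91402153-91403210), with folds of 10.01 in E47 4 h and 9.12 in GFP 4 h, and of 11.3 in E47 16 h and 9.23 in GFP 16 h. E47 was higher at both times there as well, by log2 0.13 and 0.29, above 57.4% and 93.6% of shared regions, which again were not promoters alone. Of its other matched summits, the one just inside the gene had 8.15 in E47 and 4.24 in GFP at 4 h, and 8.36 in E47 and 8.19 in GFP at 16 h. The one farther inside ran the other way, with 4.32 in E47 and 4.88 in GFP at 4 h, and 3.72 in E47 and 5.56 in GFP at 16 h. At Ereg, a region over the low-coordinate end (chr5:91074069-91074982) had folds of 11.1 in E47 4 h and 9.60 in GFP 4 h, and of 9.90 in E47 16 h and 11.4 in GFP 16 h. It was higher with E47 at 4 h and with GFP at 16 h, and it also covered the start of the overlapping lncRNA gene Gm19610, so it cannot be given to either gene alone. No list held a region in the 250 bases before Epgn, whereas such a window was overlapped for 51.3%, 50.1%, 49.9% and 51.2% of protein-coding entries in E47 4 h, GFP 4 h, E47 16 h and GFP 16 h.

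**Figure D1:**
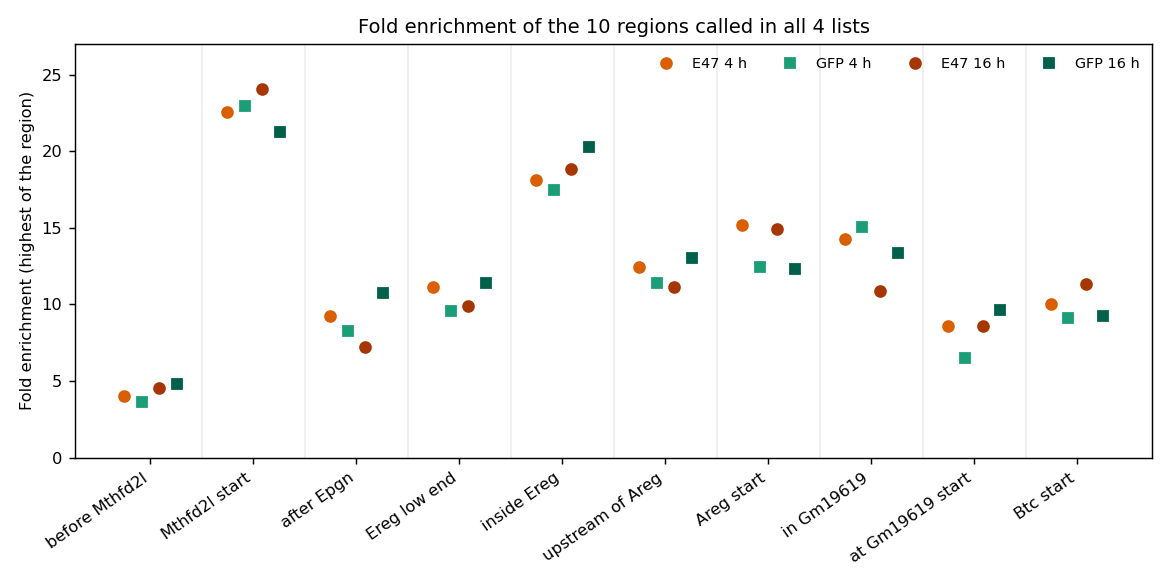
Fold enrichment (highest value of the region, vertical axis) of the 10 regions called in all 4 lists, in chromosome order; circles are E47, squares GFP, 1 value per list with no error. At the starts of Areg and Btc both E47 values lie above both GFP values. At the low-coordinate end of Ereg, a gene for which no strand was taken, the order of the vectors differs between the times.

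Of the other regions called in every list, the most enriched outside Mthfd2l was the one inside Ereg (chr5:91083022-91083563), with folds of 18.1 in E47 4 h, 17.5 in GFP 4 h, 18.9 in E47 16 h and 20.3 in GFP 16 h. The region 15404 bp before Areg (chr5:91123414-91124595) had 12.5 in E47 4 h, 11.4 in GFP 4 h, 11.1 in E47 16 h and 13.04 in GFP 16 h. One 3548 bp beyond Epgn (chr5:91038611-91039000) had 9.22 in E47 and 8.24 in GFP at 4 h, and 7.20 in E47 against 10.8 in GFP at 16 h, the lowest log2 ratio of the 10 regions (-0.58). A pair of regions lay at the lncRNA Gm19619 between Areg and Btc. The one inside it (chr5:91278418-91278839) had 14.3 in E47 and 15.03 in GFP at 4 h, and 10.9 in E47 and 13.4 in GFP at 16 h. The other, with a summit 85 bp before the start of Gm19619, had 8.60 in E47 and 6.51 in GFP at 4 h, and 8.58 in E47 and 9.63 in GFP at 16 h. The last 2 of the 10 were at the start of Mthfd2l, a mitochondrial folate enzyme gene that falls within the distance from Epgn; the stronger had folds of 22.6 in E47 4 h, 23.0 in GFP 4 h, 24.0 in E47 16 h and 21.2 in GFP 16 h.

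**Figure D2:**
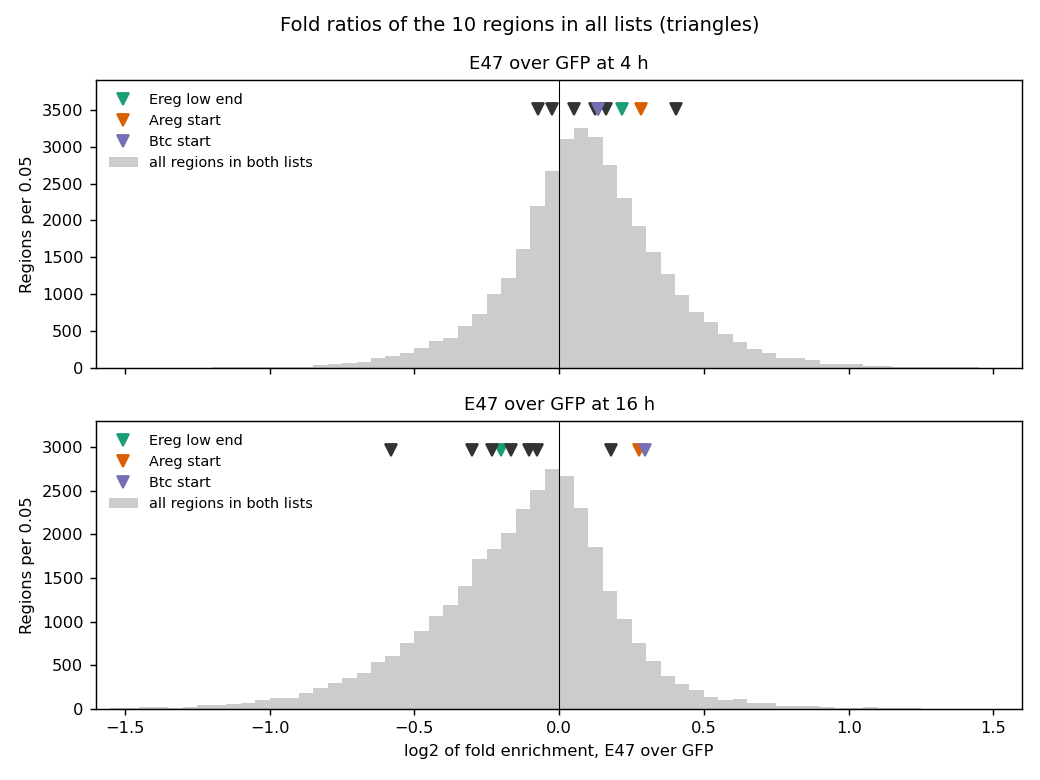
Histograms of the log2 ratio of fold enrichment, E47 over GFP (horizontal axis), of all regions called with both vectors at 4 h (top) and at 16 h (bottom), with the number of regions per 0.05 on the vertical axis; triangles are the 10 regions in all lists. The Areg start stands at 0.28 at both times, on the upper side of each distribution.

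Calls over all 25 regions, with gene starts among them, were divided in another way. E47 4 h held 13 of the 25 regions (52%; background over all regions 77.7%) and GFP 4 h held 20 (80%; background 66.5%), although the E47 list was the longer one at that time. E47 16 h held 10 (40%; background 62.9%) and GFP 16 h held 20 (80%; background 81.8%), where the GFP list was the longer one and its share was near the background. In all, 2 regions were in an E47 list and neither GFP list (8%; background 12.9%), and 12 were in a GFP list and neither E47 list (48%; background 17.4%). None of the 25 regions was in both E47 lists and neither GFP list (background over all regions 3.43%), and 6 were in both GFP lists and neither E47 list (24%; background 4.56%). All 4 lists held 10 regions (40%; background 48.8%). At 4 h, 2 regions were in E47 and not GFP (8%; background 19.5%) and 9 in GFP and not E47 (36%; background 8.37%). At 16 h the counts were 0 (background 7.48%) and 10 (40%; background 26.4%). The 25 regions share 1 neighbourhood and are not independent, so these shares describe the locus and are no test. With all lists shortened to 40649 regions, 18 regions were left; 5 of the 6 were again in both GFP lists alone (background 5.01%), all but the one inside Epgn, and the count in GFP and not E47 at 16 h came to 6 (background 15.1%). With only regions above the median −log10 p of their list, none of the 6 was in both GFP lists. The 1 region of 10 then in both GFP lists alone (background 4.01%) was the one 16594 bp beyond Ereg, which the full E47 4 h list also held.

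**Figure D3:**
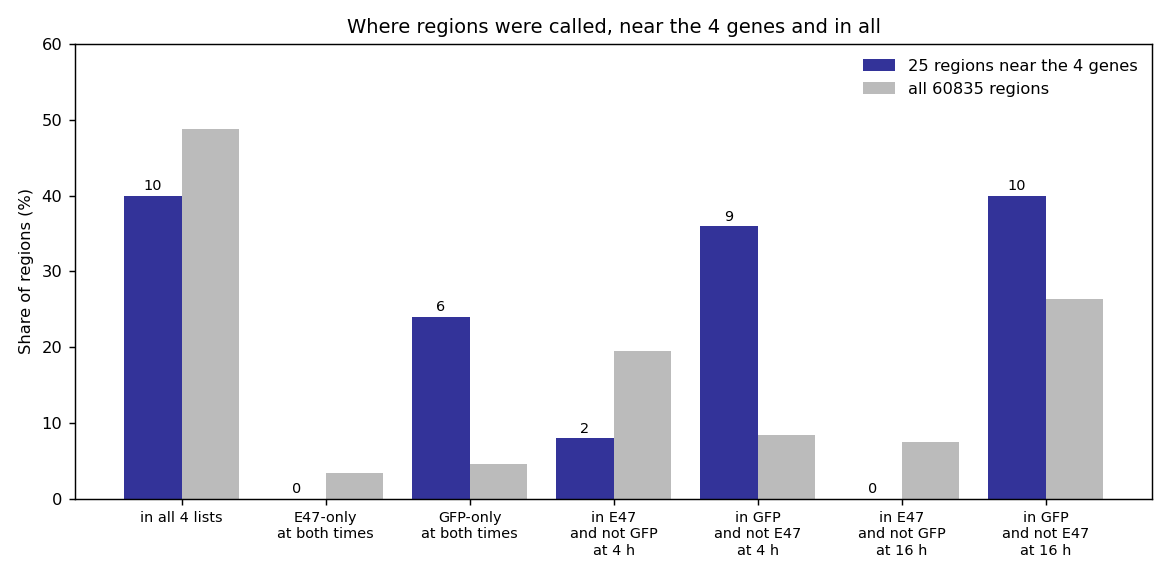
Share of regions (%, vertical axis) by the lists in which they were called, for the 25 regions near the 4 genes (left bar of each pair, with counts) and for all 60835 regions (right bar). The 6 regions called with GFP alone at both times make up a larger share near the 4 genes than among all regions, and the bar for E47 alone at both times is at 0.

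Around Areg, 6 regions had it as the nearest of the 4 genes. Beside the start and the region 15404 bp before it, which were in all lists, the other 4 were called with GFP and in neither E47 list (17.4% of all regions were). The closest lay 3600 bp before the start (chr5:91135752-91136160), with folds of 5.68 in GFP 4 h and 6.86 in GFP 16 h. By −log10 p, which grows with depth, it stood at percentile 42.9 of its list at 4 h and 59.96 at 16 h, and by fold only at 18.4 and 30.5. The nearest E47 summits were 3109 bp away at 4 h and 3105 bp at 16 h, those of the Areg start region itself. The second, 50377 bp beyond the gene (chr5:91198704-91198934), had folds of 6.18 in GFP 4 h and 8.16 in GFP 16 h, and no E47 summit within 58820 bp. The 2 others were in GFP 4 h alone, as were 3 of the 25 (12%; background 2.24%). They lay 20762 bp before Areg, with a fold of 6.82, and 1080 bp beyond its end, with 4.80; both were weak, at percentiles 16.7 and 2.78 by −log10 p.

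Epgn, whose own start was not called, had 1 region inside the gene, 1863 bp from its start (chr5:91028944-91029451). It was in both GFP lists and no E47 list, with folds of 6.37 in GFP 4 h and 6.12 in GFP 16 h and percentiles of 10.3 and 5.84 by −log10 p, near the bottom of each list. Between Ereg and Areg, 16594 bp beyond Ereg, a region was called in every list but E47 16 h (chr5:91109925-91110703). It had folds of 8.58 in E47 4 h and 13.5 in GFP 4 h, and of 12.9 in GFP 16 h. Its log2 ratio at 4 h, -0.66, was the lowest among the 11 regions near the 4 genes shared at that time, and 6.67% of all regions had the same set of lists. The remaining region near Ereg, at 8145 bp, was in GFP 4 h alone with a fold of 5.43.

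Btc was the nearest of the 4 genes for 10 regions, most of them far from it in the stretch towards Areg. Of these, 3 were in both GFP lists alone. Neighbouring regions at 54082 bp (chr5:91303010-91303254) and 53793 bp (chr5:91303324-91303586) from the gene had folds of 5.71 and 7.68 in GFP 4 h and of 7.65 and 11.2 in GFP 16 h. With gaps of up to 200 bp joined they count as 1 region, which leaves 5 of this kind. The other one, at 36784 bp (chr5:91320397-91320786), had folds of 11.6 in GFP 4 h and 9.65 in GFP 16 h, the highest at 4 h among the 6. Its percentiles by −log10 p were 49.9 and 35.6, and the nearest E47 summits were 37319 bp away at 4 h and 37316 bp at 16 h. In GFP 16 h alone there were 3 more, with folds of 5.04 to 6.12 (12% of the 25; background 10.6%). E47 4 h alone held 2 regions of the 25 (8%; background 7.21%), one inside Gm19619 with a fold of 5.66 and one inside Mthfd2l with 4.37, at percentiles of 4.76 and 0.459.

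In the whole interval between Areg and Btc, E47 4 h had 3 regions and GFP 4 h had 7, and E47 16 h had 2 and GFP 16 h had 9. The lists held 77.7%, 66.5%, 62.9% and 81.8% of all regions in that order; the part of list length in these counts was not tested. From the start of Epgn to the region at the start of Btc the longest stretch without a called summit was 131 kb in E47 4 h and 82.6 kb in GFP 4 h, and 139 kb in E47 16 h and 82.6 kb in GFP 16 h. Both longest E47 distances began at the Areg start. The 6 regions called with GFP alone at both times had median folds of 6.28 at 4 h and 7.90 at 16 h, against 6.37 and 7.61 for all regions of that kind, so they were as weak as such regions were elsewhere. Absence of a call does not mean closed chromatin, since a site can be open below the authors' threshold.

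**Figure D4:**
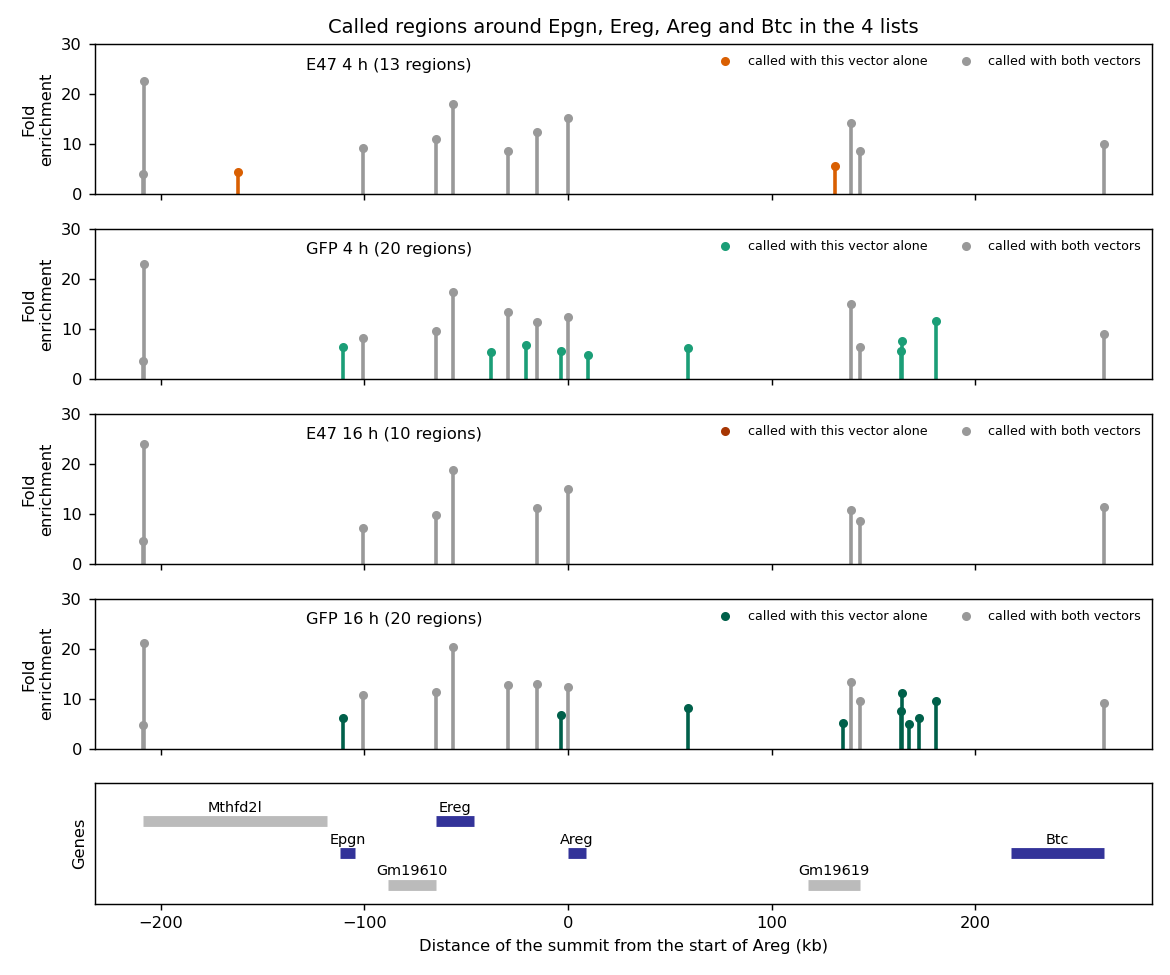
Regions called around the 4 genes in E47 4 h, GFP 4 h, E47 16 h and GFP 16 h; the horizontal axis is the distance of the summit from the start of Areg (kb), the height the fold enrichment, and coloured marks are regions called with that vector alone. Bars below show the 4 genes in blue and neighbouring genes in grey. Coloured marks are 2 in E47 4 h, none in E47 16 h, and 9 in each GFP list.

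By nearest protein-coding gene, 8.29% of the 14830 genes with any region had at least as many regions as Btc (10) and 20.1% at least as many as Areg (6). At least 3 regions called in both GFP lists alone, the number at Btc, were found for 96 genes (0.647%), at least 2, the number at Areg, for 376 (2.54%), and at least 1, the number at Epgn, for 2051 (13.8%). Ereg had none. The genes whose regions were spread over the lists most like those of Areg were 12 genes tied at a summed difference of 2 regions, of which Atxn10, Ercc8, Eri3, Fam172a and Glg1 came first in the alphabet; each had 4 regions.

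Genes of the wider EGF pathway were taken as a list of 19 ligands, receptors, sheddases and feedback inhibitors. Of these, 16 were the nearest protein-coding gene to some region, with 75 regions in all. Of all 21900 protein-coding genes, 14830 were nearest to a region. All lists held 37 of the 75 (49.3%, near the background of 48.8%). One of the 75 regions was in both E47 lists alone (1.33%; background 3.43%) and 2 were in both GFP lists alone (2.67%; background 4.56%), both shares below the background. Among the ligands, Egf had 4 regions, 3 of them in all lists. Tgfa had 1, Hbegf 4, Nrg2 6 and Nrg3 2 regions, and Nrg1 and Nrg4 had none. Of the receptors, Egfr, the receptor for amphiregulin, had 14 regions. Both of those called with GFP alone at both times belonged to it. One lay 87798 bp from the gene with folds of 8.24 in GFP 4 h and 7.94 in GFP 16 h, and one inside it with 6.63 and 6.19. Erbb3 and Erbb4 had 3 regions each. Erbb2 was the nearest gene to none, but every list held a region within 1 kb of an end of Erbb2. Among genes for shedding, the protease genes Adam17 and Adam10 had 3 and 5 regions, with none of 1 vector alone at both times. Rhbdf1, which encodes a partner of the ADAM17 protease, held the 1 region called with E47 alone at both times (folds of 5.51 in E47 4 h and 7.44 in E47 16 h), and the related Rhbdf2 had 7 regions. The feedback inhibitors Errfi1, Lrig1, Spry1 and Spry2 had 21 regions, 17 of them in all lists (81.0%, background 48.8%). The other sets lay below that background. All lists held 5 of 17 regions of the ligands (29.4%), 9 of 20 of the receptors (45%) and 6 of 17 of the shedding genes (35.3%).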

How the data were processed

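ATAC-seq peaks of 8 samples in 4 groups of 2 were analysed. Build mm10 and the tools cutadapt, Bowtie2, MACS2 and DiffBind are named, per the submitters' processing notes; their versions and settings were not given in the sources used here. Each group has, per the labels, 1 conservative peak list by irreproducible discovery rate, so no value belongs to a single sample. Per line, the deposited lists give a start, end and summit, a score that the authors' lists cap at 1000, a fold, which is a ratio over local background, and a −log10 p, all as deposited by the authors. Read depth is unknown, and fold and −log10 p belong to their own list.

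Overlapping lines of a list were merged into regions, and a region's fold and −log10 p are the highest of its lines. Percentiles are within a list. Background shares were computed over all 60835 regions. Genes and promoter sequences came from RefSeq tables of GRCm38.p6, in which 3 of 4 promoters were matched; the distal regions were not searched for motifs, since no genome sequence was used. The members and gene lists (EGF pathway, flanking genes, cell type markers) were chosen with earlier results of these data known. Named genes were the 4 members, pathway genes with a region and the 5 genes with the most similar region classes. There was no test between groups. Alternatives changed the overlap, the merging, the list length, the threshold and the distance. The code was tested on simulated data. Python 3.11.15, pandas 2.3.3, numpy 2.4.6 and matplotlib 3.10.9 were used.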

Additional observations from a re-analysis of the deposited data

Results flagged for a closer look

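In 7 of the 10 regions called in all lists, the fold ratio of E47 over GFP had opposite signs at 4 h and 16 h. The log2 ratio at 4 h minus that at 16 h was 0.74 beyond Epgn, 0.42 at the low-coordinate end of Ereg and 0.15 inside Ereg. It was 0.36 at the region 15404 bp before Areg and 0.57 at the start of Gm19619. The weaker and the stronger region of Mthfd2l had 0.21 and -0.21. These differences between times were not tested. Over all shared regions the median log2 ratio also had opposite signs, 0.09 at 4 h and -0.09 at 16 h. The ratio was above 0 in 23581 of 35382 shared regions at 4 h and in 12014 of 33682 at 16 h. The share of all regions with opposite signs was not computed, so the 7 of 10 cannot be called particular to this locus. The starts of Areg and Btc, with E47 higher at both times, and the region inside Gm19619, with GFP higher at both times, were the other 3.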

How the results depend on the processing

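No paired analysis was possible because each group had 1 list made from both samples; for the same reason no replicate could be left out. Of 56 values under 7 alternatives, 31 stayed within 1.5 times of the count reported, among them every count with an overlap of 50% of the shorter region (6 regions GFP-only at both times) and with lines up to 200 bp apart merged (5). The other 25 follow by setting. With lists of equal length, 0 regions were in E47 and not GFP at 4 h and 6 in GFP and not E47 at 16 h. Above the median −log10 p, 10 regions remained in the count, 5 of them in all lists, 1 in both GFP lists alone (none of the 6 reported), 1 in E47 and not GFP at 4 h, 1 in GFP and not E47 at 4 h and 5 at 16 h. Counting single summits within 150 bp gave 50 sites, 18 of them in all lists, 1 in both E47 lists alone, 7 in E47 and not GFP at 4 h and 1 at 16 h, and 17 in GFP and not E47 at 16 h. Within 50 kb of the genes there were 14 regions, 6 of them in all lists, 3 in both GFP lists alone, 0 in E47 and not GFP at 4 h and 5 in GFP and not E47 at 16 h. Within 20 kb there were 11 regions, 6 of them in all lists, 2 in both GFP lists alone, 0 in E47 and not GFP at 4 h, and 4 at 4 h and 3 at 16 h in GFP and not E47. Fewer regions were counted at a shorter distance, and some shares moved as well. In GFP and not E47 at 16 h were 10 of 25 regions within 100 kb, 5 of 14 within 50 kb and 3 of 11 within 20 kb (background 26.4%). All lists held 10 of 25, 6 of 14 and 6 of 11 in the same order (background 48.8%). In GFP and not E47 at 4 h were 9 of 25, 6 of 14 and 4 of 11 (background 8.37%). Both GFP lists alone held 6 of 25, 3 of 14 and 2 of 11 (background 4.56%). These last shares stayed above the background at each distance. In each setting but single summits, no region was in both E47 lists alone. Unknown depth limits every count of missing calls.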

Other observations

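Beyond Epgn the cluster is followed by Mthfd2l and a group of chemokine genes, and beyond Btc by Parm1. Of 12 flanking genes taken as a list, 8 were nearest to a region, as were 14830 of all 21900 protein-coding genes. The 8 had 29 regions, 18 of them in all lists (62.1%, background over all regions 48.8%). None was in both E47 lists alone (background 3.43%) and 3 were in both GFP lists alone (10.3%, background 4.56%). Those 3 were named for Cxcl1, a chemokine gene that attracts neutrophils (1), and Rassf6 (2). Cxcl2 and Cxcl5 had 2 and 4 regions and Pf4 had 1. Cxcl15, Ppbp, Parm1 and Afm had none. Beyond Btc the next region of any list lay 459460 bp from the gene, so that the whole of Parm1 held no call.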
